A study of Mus musculus with 6 samples.

Results

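The mesothelium is the single layer of flattened cells that covers the lung and lines the pleural, pericardial and peritoneal cavities. Its cells keep epithelial traits, with simple keratins, apical microvilli and a glycoprotein-rich surface, although they derive from mesoderm, and in culture they can lose these traits and take on a fibroblast-like form. A set of 10 genes that mark this layer was followed through the transcriptomes of cultured lung microvascular endothelial cells (LMVEC). They were picked by symbol from the count table, where every one was found among 21999 genes. In the set, 5 encode surface or secreted proteins (*Msln*, *Upk3b*, *Upk1b*, *Lrrn4* and *Muc16*), 2 encode zinc finger transcription factors (*Wt1* and *Bnc1*) and 3 encode keratins of simple epithelia (*Krt8*, *Krt18* and *Krt19*).

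RNA had been sequenced from LMVEC of *Ptprz1*+/+ and *Ptprz1*-/- mice, with 3 independent isolations per genotype, to ask what loss of the receptor tyrosine phosphatase PTPRZ1 changes in these cells. All mice were of the SV129/B6 strain, aged 3 to 8 weeks, and each isolation pooled 2 to 5 of them. In both genotypes the lungs were digested with collagenase, the suspension was cultured with endothelial growth supplement and heparin, and CD31-binding magnetic beads were applied once the plate was full. The cells were untreated. The knockout is not described as restricted to any cell type, and whole lung with its outer surface was the starting tissue.

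Each library held between 14496881 and 17709663 counts, and 13609 genes passed the filter on low counts. Values are given as CPM, the depth-scaled count of a gene after correction for library composition, and in order of replicate number. Reads of *Ptprz1* itself did not separate the genotypes, at 11.9, 101.0 and 32.1 CPM in the libraries labelled *Ptprz1*+/+ and 70.6, 90.6 and 59.1 CPM in those labelled *Ptprz1*-/-. Every genotype direction below therefore rests on the labels. The labelled cell type was poorly matched by its markers. Summed over 12 endothelial genes, the libraries held 30.2, 36.9 and 568.5 CPM (*Ptprz1*+/+) and 27.1, 17.2 and 185.5 CPM (*Ptprz1*-/-), against 20945 to 34965 CPM for 10 fibroblast genes, so only the replicates numbered 3 were relatively rich in endothelial RNA. One library stood apart for the mesothelial genes: all 10 were highest in the library labelled *Ptprz1*-/- replicate 1, which was the highest library for 17.6% of the genes tested. Its 10 genes summed to 1492 CPM, against 126.6 and 302.7 CPM in the other libraries labelled *Ptprz1*-/- and 241.9, 62.0 and 99.8 CPM in those labelled *Ptprz1*+/+. Genotype values are therefore given with and without it. Leaving it out keeps *Ptprz1*+/+ replicate 1, with which it shared deviations from the group means (correlation 0.46 over the genes tested). The values without it are thus unbalanced in replicate number.

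**Figure D1:**
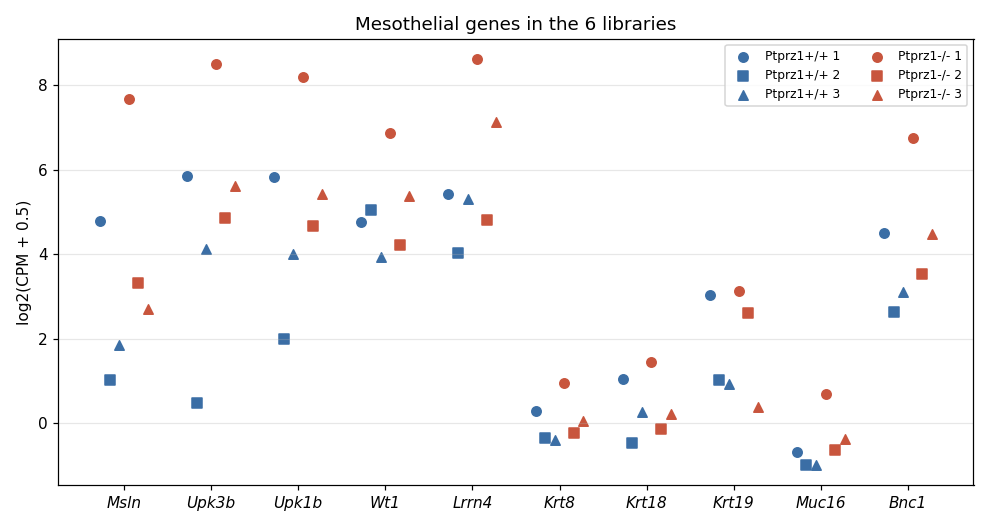
Each point is the log2(CPM + 0.5) level of one of the 10 mesothelial genes (x axis) in one library, blue for Ptprz1+/+ and red for Ptprz1-/-, with the marker shape giving the replicate. The red circle, Ptprz1-/- replicate 1, is the highest point of every gene, and for every gene except Muc16 at least 1 other red point lies below the highest blue one.

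Promoters were available from RefSeq (GRCm38.p6) for 6 of the 10 genes, as windows of 300 bases around the transcription start. Those of *Upk3b*, *Lrrn4* and *Bnc1* are shown because these genes are among the 5 most variable of the set and each window held one of 5 short motifs searched on both strands. The *Upk3b* and *Lrrn4* windows each held one GGAATG, the core letters that TEAD factors recognise, shown in capitals (CATTCC where it lies on the other strand). This motif was present in 14.7% of 32851 promoters. The *Bnc1* window held 6 copies of the GC box GGGCGG, also in capitals, which 35.7% of promoters contained at least once.
*Upk3b*, chr5:136038246-136038545, plus strand: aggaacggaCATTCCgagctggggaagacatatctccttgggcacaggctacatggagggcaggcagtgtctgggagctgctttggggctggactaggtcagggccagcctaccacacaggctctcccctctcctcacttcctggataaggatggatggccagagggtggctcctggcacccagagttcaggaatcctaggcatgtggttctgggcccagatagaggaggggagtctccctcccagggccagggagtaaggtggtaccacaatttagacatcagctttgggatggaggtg
*Lrrn4*, chr2:132880813-132881112, minus strand: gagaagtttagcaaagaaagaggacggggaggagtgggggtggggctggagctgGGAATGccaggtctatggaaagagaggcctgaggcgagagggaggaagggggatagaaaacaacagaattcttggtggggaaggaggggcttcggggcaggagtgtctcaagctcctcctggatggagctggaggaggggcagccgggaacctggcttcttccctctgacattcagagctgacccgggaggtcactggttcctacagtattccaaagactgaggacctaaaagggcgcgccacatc
*Bnc1*, chr7:81992250-81992549, minus strand: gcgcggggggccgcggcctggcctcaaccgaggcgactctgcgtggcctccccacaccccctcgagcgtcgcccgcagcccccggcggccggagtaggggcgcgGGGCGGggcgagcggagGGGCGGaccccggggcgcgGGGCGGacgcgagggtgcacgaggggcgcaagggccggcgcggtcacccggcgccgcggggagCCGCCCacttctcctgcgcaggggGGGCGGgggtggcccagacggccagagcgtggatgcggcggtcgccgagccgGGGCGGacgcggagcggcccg

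Counted from the transcription start, the motif began at position -241 in *Upk3b* and -196 in *Lrrn4*. The *Bnc1* window was 83.3% G and C, against a median of 52.7% over all promoters, a base composition in which the letters of a GC box are frequent. Of the remaining motifs, the TATA box TATAAA was found in 13.6% of all promoters and the CCAAT box in 37.4%. The last, GCGTGGG, is shared by EGR factors and WT1 and was found in 5.04%. Among the 6 windows only that of *Krt8* held one of these, a TATA box on each strand with overlapping letters, and the windows of *Krt18* and *Muc16* held none of the 5 motifs. A match of letters describes the window and says nothing of binding in these cells.

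*Msln* (chr17:25748614-25754327, minus strand) encodes the precursor of mesothelin, a lipid-anchored surface glycoprotein of mesothelial cells. It was at 26.9, 1.54 and 3.09 CPM in the libraries labelled *Ptprz1*+/+ and at 203.6, 9.40 and 6.01 CPM in those labelled *Ptprz1*-/-. The first replicate of each genotype was the highest of its group, and the groups overlapped. The group means were 10.5 ± 14.2 and 73.0 ± 113.1 CPM (SD, n = 3 each), so the SD exceeded the mean in both. The log2 fold change, *Ptprz1*-/- over *Ptprz1*+/+, was 2.80 (SE 1.66), and without *Ptprz1*-/- replicate 1 it was -0.44 (SE 1.22), on the other side of zero. With all 6 libraries and a term for replicate number it was 2.23.

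*Upk3b* (chr5:136038496-136045303, plus strand) and *Upk1b* (chr16:38773184-38800203, minus strand) encode uroplakins, membrane proteins first known from the apical plaques of the bladder lining. *Upk3b* was at 57.5, 0.880 and 16.8 CPM in the libraries labelled *Ptprz1*+/+ and at 364.5, 28.7 and 48.5 CPM in those labelled *Ptprz1*-/-. *Upk1b* was at 56.1, 3.46 and 15.6 CPM and at 292.0, 25.1 and 42.3 CPM in the same order. Both genes shared one order of libraries, from *Ptprz1*-/- replicate 1 down to *Ptprz1*+/+ replicate 2, and *Ptprz1*+/+ replicate 1 was above the 2 lower *Ptprz1*-/- libraries. For *Upk3b* the means were 25.1 ± 29.2 and 147.3 ± 188.4 CPM, with a log2 fold change of 2.56 (SE 1.47), or 0.63 (SE 1.31) without *Ptprz1*-/- replicate 1. For *Upk1b* they were 25.0 ± 27.5 and 119.8 ± 149.3 CPM, with a log2 fold change of 2.26 (SE 1.25), or 0.44 (SE 1.03) without that library. Among the 9 genes with reads in every library, *Upk3b* had the widest span: its highest library was 414-fold above its lowest, which held 16 reads.

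*Lrrn4* (chr2:132868305-132880891, minus strand) encodes a leucine-rich repeat membrane protein. It was at 42.3, 15.7 and 38.9 CPM in the libraries labelled *Ptprz1*+/+ and at 393.9, 27.7 and 140.2 CPM in those labelled *Ptprz1*-/-. *Ptprz1*-/- replicates 1 and 3 lay above all *Ptprz1*+/+ libraries and replicate 2 lay among them. The means were 32.3 ± 14.5 and 187.3 ± 187.6 CPM, and the log2 fold change was 2.53 (SE 0.92). This was the only one of the 8 genes tested with an unadjusted p under 0.05 (edgeR's quasi-likelihood test, adjusted p = 1.00), where 1.13% of all genes tested were under that level and higher in *Ptprz1*-/-. Without *Ptprz1*-/- replicate 1 the log2 fold change was 1.38 (SE 0.74), the highest left among the 8.

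*Muc16* (chr9:18495455-18512885, minus strand) encodes the membrane mucin that carries the CA125 antigen and binds mesothelin. It had 2, 0 and 0 reads in the libraries labelled *Ptprz1*+/+ and 18, 2 and 4 reads in those labelled *Ptprz1*-/-, too few to pass the filter. In CPM the groups did not overlap, with 0.121 CPM as the highest *Ptprz1*+/+ value and 0.137 CPM as the lowest *Ptprz1*-/- value. This was 1 of the 10 genes with all *Ptprz1*-/- libraries above all *Ptprz1*+/+ libraries, against 3.55% of the genes tested. By exact permutation (two-sided), p was 0.1, the lower limit for 3 libraries against 3. The values that separated the groups rested on 2 reads each, and a count of 0 allows up to 0.165 or 0.189 CPM in the libraries concerned (3 reads, counting error only), above the lowest *Ptprz1*-/- value. The gene model of the table spans 17431 bases, against 179076 in GENCODE M21, and ends 161669 bases from the RefSeq promoter window, so only a part of *Muc16* was counted.

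*Wt1* (chr2:105126529-105173616, plus strand) encodes the zinc finger factor WT1, which is needed for formation of the epicardium, kidney and gonad. It was at 26.5, 32.7 and 14.9 CPM in the libraries labelled *Ptprz1*+/+ and at 117.3, 18.3 and 41.4 CPM in those labelled *Ptprz1*-/-. The groups overlapped, with *Ptprz1*-/- replicate 2 below both *Ptprz1*+/+ replicates 1 and 2. *Wt1* did not follow the surface genes into their lowest library: *Ptprz1*+/+ replicate 2, with 16 reads of *Upk3b* and 28 of *Msln*, held 594 reads of *Wt1*. The means were 24.7 ± 9.02 and 59.0 ± 51.8 CPM, the log2 fold change was 1.26 (SE 0.67), and it was 0.28 (SE 0.46) without *Ptprz1*-/- replicate 1.

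*Bnc1* (chr7:81966672-81992299, minus strand) encodes basonuclin 1, a zinc finger protein of stratified epithelia, germ cells and mesothelium. It was at 22.4, 5.72 and 8.14 CPM in the libraries labelled *Ptprz1*+/+ and at 108.1, 11.0 and 21.9 CPM in those labelled *Ptprz1*-/-. *Ptprz1*+/+ replicate 1 was above *Ptprz1*-/- replicates 2 and 3, and the groups overlapped. The means were 12.1 ± 8.99 and 47.0 ± 53.2 CPM, the log2 fold change was 1.96 (SE 0.94), and it was 0.45 (SE 0.65) without *Ptprz1*-/- replicate 1. The gene model overlaps 298 bases of the transcript 4833418N17Rik, which had 19 reads in all 6 libraries together. Of the 8 genes tested, *Bnc1* lay closest to their mean pattern over the libraries, at a root mean square difference of 0.24 on the log2 scale.

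Of the keratins, *Krt8* and *Krt18* were low in every library. *Krt8* (chr15:101996711-102004342, minus strand) and *Krt18* (chr15:102028216-102032026, plus strand) encode the type II and type I chains that pair into the filaments of simple epithelia, and their gene models lie 23873 bases apart. *Krt8* had 12, 5 and 4 reads in the libraries labelled *Ptprz1*+/+ and 23, 5 and 8 in those labelled *Ptprz1*-/-, and did not pass the filter. *Krt18* had 26, 4 and 11 reads and 36, 6 and 10 reads, with means of 0.828 ± 0.685 and 1.10 ± 0.988 CPM. Both genes were highest in the first replicate of each genotype, and the groups overlapped. The log2 fold change of *Krt18* was 0.42 (SE 0.87) and turned to -0.61 (SE 0.89) without *Ptprz1*-/- replicate 1. Both have processed copies in the genome: 928 matching bases at 98.6% identity joined *Krt8* with *Krt8-ps* and 1144 at 90.3% joined *Krt18* with *Gm5200*. How reads shared with such copies were counted is not given in the sources used here, so the counts of both genes are uncertain.

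*Krt19* (chr11:100140810-100148665, minus strand), a type I keratin of simple epithelia, was at 7.73, 1.54 and 1.39 CPM in the libraries labelled *Ptprz1*+/+ and at 8.19, 5.56 and 0.793 CPM in those labelled *Ptprz1*-/-. Here the highest and the second highest library, one of each genotype, were only 1.06-fold apart, and a *Ptprz1*-/- library was the lowest of the 6. The means were 3.55 ± 3.62 and 4.85 ± 3.75 CPM, and the log2 fold change was 0.45 (SE 0.97), or -0.16 (SE 1.10) without *Ptprz1*-/- replicate 1.

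Per length of the gene model, the mean level over the 6 libraries ran from 40.9 RPKM (CPM divided by kilobases of gene model) for *Upk1b* through 36.7 for *Upk3b*, 29.6 for *Lrrn4*, 19.8 for *Msln*, 13.5 for *Wt1*, 6.35 for *Bnc1*, 2.66 for *Krt19*, 0.689 for *Krt18* and 0.328 for *Krt8* to 0.264 for *Muc16*. The ranges over the libraries overlapped for all 9 pairs of neighbours in this order. Within libraries, *Upk1b* was above *Upk3b*, *Wt1* above *Bnc1*, *Krt19* above *Krt18* and *Krt18* above *Krt8* in 6 of 6, whereas *Upk3b* was above *Lrrn4* in 3 of 6 and *Msln* above *Wt1* in 2 of 6. In *Ptprz1*-/- replicate 1 the leading surface genes were among the more abundant transcripts, *Upk1b* at percentile 97.4 and *Upk3b* at percentile 97.3 of the genes tested. In *Ptprz1*+/+ replicate 2 the same genes were at percentiles 22.5 and 5.55. *Krt8*, by contrast, stayed between percentiles 1.20 and 12.0 in all 6 libraries.

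The genes differed in how far they moved between libraries. The SD of log2(CPM + 0.5) over the 6 libraries was 2.64 for *Upk3b*, 2.39 for *Msln*, 2.06 for *Upk1b*, 1.69 for *Lrrn4*, 1.47 for *Bnc1*, 1.21 for *Krt19* and 1.04 for *Wt1*, where the median of all genes tested was 0.28 and their 90th percentile 0.79. The values of *Krt18*, *Muc16* and *Krt8* were 0.73, 0.63 and 0.52, on low counts that the added 0.5 pulls together. The excess of *Ptprz1*-/- replicate 1 over the next library was 7.56-fold for *Msln*, 6.34-fold for *Upk3b*, 5.21-fold for *Upk1b* and 4.84-fold for *Bnc1*, but 2.83-fold for *Wt1*, 2.81-fold for *Lrrn4*, 1.97-fold for *Krt8* and 1.42-fold for *Krt18*. The next library was *Ptprz1*+/+ replicate 1 for 7 genes and *Ptprz1*-/- replicate 3 for *Wt1*, *Lrrn4* and *Muc16*. The lowest was *Ptprz1*+/+ replicate 2 for 6 genes. Averaged over the 8 genes tested and centred on each gene's mean, the log2 level was 0.55, -1.88 and -0.92 in the libraries labelled *Ptprz1*+/+ and 2.55, -0.37 and 0.06 in those labelled *Ptprz1*-/-.

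**Figure D2:**
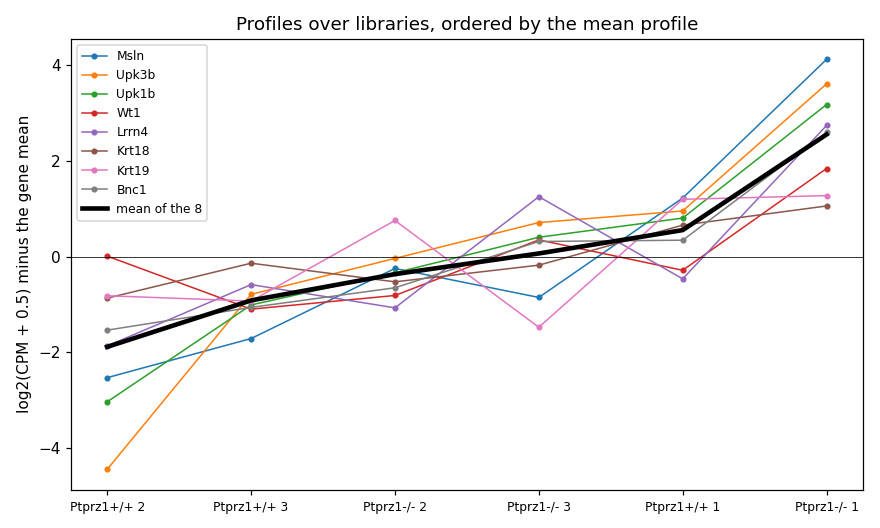
The y axis is log2(CPM + 0.5) minus the gene's mean over 6 libraries, for the 8 genes tested (thin lines) and their mean (thick line), with the libraries on the x axis ordered by that mean from -1.88 to 2.55. All 8 lines are highest at Ptprz1-/- replicate 1, while Wt1 (near zero) departs from the others at Ptprz1+/+ replicate 2 and Krt19 at Ptprz1-/- replicate 3.

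Ratios within a library do not depend on its depth and show where the genes parted. The per-length ratio of *Upk3b* to *Upk1b* was 0.774, 0.192 and 0.815 in the libraries labelled *Ptprz1*+/+ and 0.941, 0.861 and 0.865 in those labelled *Ptprz1*-/-. It thus lay between 0.774 and 0.941 in 5 libraries and was lower in *Ptprz1*+/+ replicate 2, where the 95% interval was 0.103 to 0.336 (Clopper-Pearson, counting error only). Within the 5 it still differed, with intervals of 0.706 to 0.848 in *Ptprz1*+/+ replicate 1 and 0.906 to 0.978 in *Ptprz1*-/- replicate 1. The ratio of *Wt1* to *Upk3b* was 0.350, 28.2 and 0.671 against 0.244, 0.483 and 0.648, with an interval of 17.2 to 49.6 in *Ptprz1*+/+ replicate 2. The ratio of *Bnc1* to *Upk3b* ranged from 0.150 to 0.244 in 5 libraries and was 3.28 in that one. All ratios with *Upk3b* in that library share its 16 reads there, so they are not separate observations. The ratio of *Bnc1* to *Wt1*, which leaves *Upk3b* out, was 0.560, 0.116 and 0.363 against 0.612, 0.399 and 0.352. *Lrrn4* to *Upk3b* followed another order, at 0.465, 11.3 and 1.46 against 0.682, 0.609 and 1.82, with the replicates numbered 3 above the other libraries except *Ptprz1*+/+ replicate 2. *Msln* to *Upk3b* was 0.520, 1.94 and 0.204 against 0.620, 0.364 and 0.137, lowest in the same replicates numbered 3. In these last 2 ratios the replicates numbered 3 stood side by side across the labels.

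The comparison of the genotypes called none of the mesothelial genes. Of the 8 genes tested, 0 had an adjusted p under 0.05 in edgeR's quasi-likelihood test, as did 0% of all genes tested (0 of 13609, with 366 at an unadjusted p under 0.05). DESeq2 gave a p to 9 of the mesothelial genes and called 0, with 4 at an unadjusted p under 0.05. Over all 21943 genes to which it gave a p, it called 31 (0.141%), with 565 (2.57%) at an unadjusted p under 0.05. With limma voom, 0 of 8 were called and 0 were at that level, where 0 of all 13609 genes were called and 342 (2.51%) were at it. All 8 estimates were above zero, with a median log2 fold change of 2.11, where the median over all genes tested was -0.0047 and 49.1% were above zero. Without *Ptprz1*-/- replicate 1, 5 of 8 were above zero with a median of 0.36, and the median over all 14007 genes then tested was -0.02. Gene by gene, the exact two-sided permutation test on CPM gave p values from 0.1 for *Muc16* to 0.9 for *Krt19*. The p values above measure the spread between isolations that pooled several mice, without a term for replicate number. No genotype difference of a mesothelial gene passed adjustment. With a replicate term, edgeR's test called 0 of the 8, with 5 at an unadjusted p under 0.05. Over all 13609 genes, 690 were at that level and 0 were called. In bulk RNA, a different number of cells that express these genes and a different level per cell cannot be told apart. Which cells of the cultures expressed them was not tested.

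**Figure D3:**
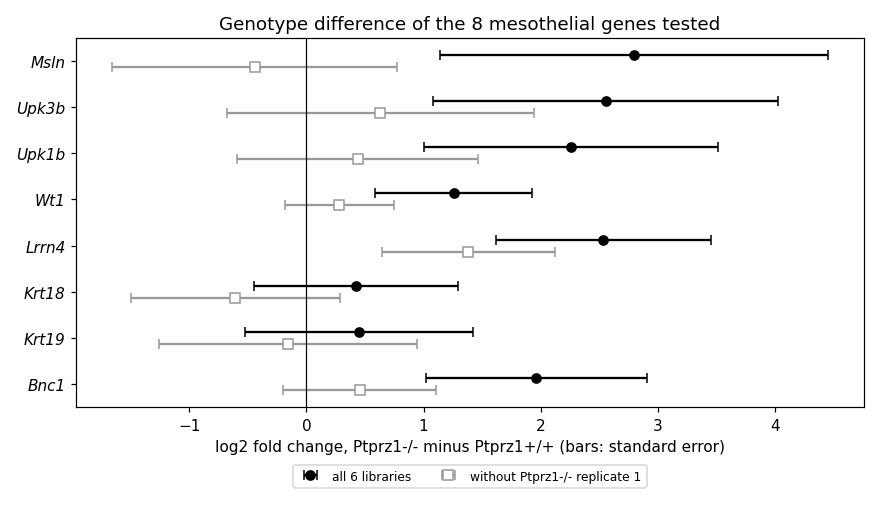
Points are log2 fold changes, Ptprz1-/- minus Ptprz1+/+, of the 8 genes tested, with bars for the standard error, from all 6 libraries (black) and without Ptprz1-/- replicate 1 (open squares). Every black point is above zero, from 0.42 to 2.80, and the open squares lie between -0.61 and 1.38.

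The 12 other genes known from mesothelium were less uniform. Of these, 10 were tested and 0 were called, 6 with estimates above zero and 4 below, with a median of 1.07. *Ezr*, which encodes the microvillus linker ezrin, was at 129.0, 44.4 and 81.7 CPM in the libraries labelled *Ptprz1*+/+ and at 553.7, 87.6 and 150.3 CPM in those labelled *Ptprz1*-/-. It shared the peak in *Ptprz1*-/- replicate 1, and its log2 fold change was 1.63 (SE 0.75), or 0.49 (SE 0.48) without that library. *Gpm6a*, a membrane glycoprotein gene, was at 12.2, 1.26 and 10.7 CPM and at 90.7, 7.69 and 32.6 CPM. *Rspo1*, the gene of a secreted Wnt enhancer, was at 2.17, 2.09 and 3.91 CPM and at 34.5, 2.95 and 14.9 CPM. Among the libraries labelled *Ptprz1*-/-, both were highest in replicate 1 and lowest in replicate 2, as were *Ezr* and all genes of the mesothelial set except *Msln* and *Krt19*. *Rspo1* had a log2 fold change of 2.68 (SE 0.84), and 1.71 (SE 0.72) without *Ptprz1*-/- replicate 1, neither of which passed after adjustment (edgeR, adjusted p = 1.00 and 0.999).

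Other abundant genes of that list, which fibroblasts also express, had other profiles. *Pdpn*, the podoplanin gene, was at 235.0 ± 40.8 and 234.7 ± 42.5 CPM in the genotypes. *Efemp1*, encoding the matrix protein fibulin-3, peaked in *Ptprz1*+/+ replicate 3 at 1231 CPM and was lowest, at 162.6 CPM, in the very library where the mesothelial genes were highest. *Cdh2*, the N-cadherin gene, was at 218.3, 210.9 and 308.1 CPM in the libraries labelled *Ptprz1*+/+ and at 144.8, 138.8 and 166.5 CPM in those labelled *Ptprz1*-/-. Its log2 fold change was -0.71 (SE 0.19, edgeR adjusted p = 1.00). In this list of 12, 1 gene (*Cdh2*) had all *Ptprz1*-/- libraries below all *Ptprz1*+/+ libraries, and 1 had them all above. Of all genes tested, 3.55% had them all above, and the share below was not counted. *Calb2*, the gene of the mesothelial antigen calretinin, reached at most 7 reads in a library, and *Itln1* had 1 read in all.

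Transcription factors of serosal and epicardial cells were set beside *Wt1* and *Bnc1*. All 8 were tested and 0 called, 3 with estimates above zero and 5 below, with a median of -0.28. Of the 8, 2 were highest in *Ptprz1*-/- replicate 1, as were 17.6% of all genes tested. *Gata6* was at 51.8, 67.7 and 56.7 CPM in the libraries labelled *Ptprz1*+/+ and at 82.3, 57.1 and 66.7 CPM in those labelled *Ptprz1*-/-, a far narrower range than that of *Wt1*. *Osr1* had a log2 fold change of -0.29 (SE 0.39), *Hoxa5* of -0.26 (SE 0.50) and *Gata4* of -0.52 (SE 0.42). Relatives of the mesothelial genes by protein family had profiles of their own: *Bnc2* stayed between 23.6 and 49.0 CPM, and *Lrrn3* peaked in *Ptprz1*-/- replicate 3 at 104.6 CPM. Of the bladder uroplakins, *Upk2* had 1 read in all and *Upk1a* between 7 and 14 reads per library. Of 6 relatives tested, 0 were called, with 4 estimates above zero and a median of 0.24. *Lrrn2* had a log2 fold change of -2.19 (SE 0.86) and peaked in *Ptprz1*+/+ replicate 2 at 16.7 CPM. It was the 1 relative with an unadjusted p under 0.05 (edgeR), where 366 of all 13609 genes were at that level.

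Among the other keratin and desmosome genes, *Krt7*, a type II keratin of simple epithelia, had its extremes in the same libraries as the uroplakins. It was at 9.30, 0.440 and 7.70 CPM in the libraries labelled *Ptprz1*+/+ and at 94.5, 5.08 and 18.2 CPM in those labelled *Ptprz1*-/-, highest in *Ptprz1*-/- replicate 1 and lowest in *Ptprz1*+/+ replicate 2. Its per-length ratio to *Krt18* was 14.5 in *Ptprz1*-/- replicate 1 (95% interval 10.4 to 20.7) and between 0.684 and 9.40 in the others. The value of 9.40, in *Ptprz1*-/- replicate 3, had an interval of 5.04 to 19.8 that overlapped the one of replicate 1. The log2 fold change was 2.76 (SE 1.31), or 1.00 (SE 1.14) without that library. *Jup*, the plakoglobin gene, had its extremes in the same libraries but a narrower span, at 120.8 CPM in *Ptprz1*-/- replicate 1 and between 38.7 and 55.6 CPM elsewhere. *Pkp2* and *Dsc2*, both desmosomal, had log2 fold changes of 0.45 (SE 0.75) and -0.94 (SE 0.71). Of 10 genes in this list 4 were tested and 0 called, and the stratified keratins *Krt5*, *Krt14* and *Krt17* held at most 10 reads in a library.

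Because keratins and uroplakins also belong to epithelia, markers of other cells were set beside the mesothelial genes. Of 11 lung epithelial genes, 10 never reached 10 reads in a library, and their sums were 1.75 to 2.58 CPM in the libraries labelled *Ptprz1*+/+ and 1.61 to 2.97 CPM in those labelled *Ptprz1*-/-. *Epcam*, the epithelial adhesion molecule gene, had 8, 4 and 1 reads against 0, 1 and 4, and *Cdh1*, the E-cadherin gene, also had 0 in *Ptprz1*-/- replicate 1, where the mesothelial genes were highest. *Ager*, a gene of alveolar type I cells and the only one of the list that was tested, had 11, 16 and 32 reads against 23, 24 and 34, with a log2 fold change of 0.58 (SE 0.50). It made up most of the lung epithelial sum in *Ptprz1*-/- replicate 1, with 1.43 of 1.61 CPM, the lowest sum of the 6 libraries. The endothelial genes had estimates below zero (12 of 12, median -1.43, 0 called), and all 12 peaked in *Ptprz1*+/+ replicate 3, where the mesothelial genes summed to 99.8 CPM. Fibroblast genes were abundant everywhere, with 0 of 10 called and a median of -0.46, and their sum was lowest in *Ptprz1*-/- replicate 1. Leukocyte genes summed to 24.9 to 71.0 CPM and 25.3 to 36.9 CPM, with 0 of 4 called, a median of -0.75 and *Ptprc*, the gene of CD45, at 1 to 9 reads.

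Smooth muscle and pericyte genes were divided. Their sums, carried mostly by *Acta2* and *Tagln*, ran from 408 to 3742 CPM in the libraries labelled *Ptprz1*+/+ and from 836 to 4089 CPM in those labelled *Ptprz1*-/-, with the first replicate of each genotype highest, and 0 of 9 were called with a median of 0.25. Of the 9 genes, 3 were highest in *Ptprz1*-/- replicate 1, as were 17.6% of all genes tested. *Acta2*, encoding smooth muscle actin, was at 2157 CPM in *Ptprz1*+/+ replicate 1 and 1636 CPM in *Ptprz1*-/- replicate 1, and between 145.0 and 702.7 CPM in the others. *Des*, the desmin gene, was at 410.5 CPM in *Ptprz1*-/- replicate 1 and between 6.88 and 66.5 CPM elsewhere. *Tagln*, encoding transgelin, was at 1349 and 1875 CPM in the first replicates and between 166.0 and 447.7 CPM in the others. *Notch3*, a receptor gene of pericytes, was by contrast lowest in *Ptprz1*-/- replicate 1, at 21.3 CPM, and highest in *Ptprz1*+/+ replicate 3, at 106.3 CPM. Their part in the pattern of the mesothelial genes was not tested.

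**Figure D4:**
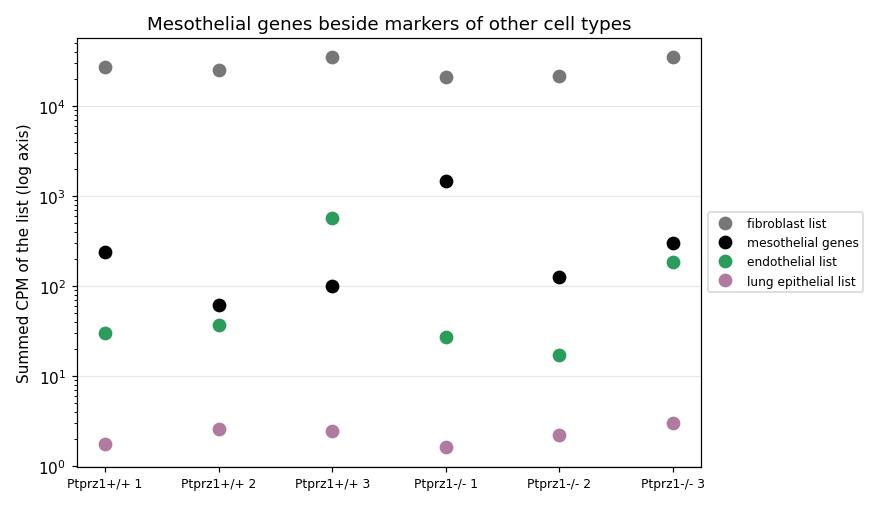
The y axis (log scale) is the summed CPM of the 10 mesothelial genes (black) and of the fibroblast, endothelial and lung epithelial lists in each of the 6 libraries (x axis). The mesothelial sum runs from 62.0 to 1492 CPM and is highest in Ptprz1-/- replicate 1, whereas the endothelial sum is highest in the replicates numbered 3 and the epithelial sum stays below 3 CPM.

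Among the genes tested, the mesothelial genes themselves left out, the 10 with the profile nearest to the mean of the mesothelial genes were *Tmem125*, *Mbp*, *Ezr*, *Folr1*, *Pard6b*, *Mgll*, *Rhpn2*, *Prkcz*, *Arl4d* and *Fgd3*, at root mean square differences of 0.27 to 0.45 on the log2 scale over 6 libraries. *Pard6b* and *Prkcz* encode partners in the PAR cell polarity complex, and *Folr1* encodes a folate receptor. *Ezr* was the only one of the 10 that also stood in a list of mesothelial genes. For single members the nearest gene was *Prph* for *Upk1b*, at 0.23, and the same gene was among the 3 nearest to *Upk3b*. *Msln* was nearest to *Smpd3* (0.35), *Lrrn4* to *Zfp185* (0.40) with *Rspo1* next (0.42), and *Bnc1* to *Folr1* (0.18). *Wt1* was nearest to *2310030G06Rik* (0.19) and then to *Wt1os* (0.28), the transcript named for the opposite strand at *Wt1*. Whether the counting used strand is not given in the sources used here. *Krt18* was nearest to *Col11a1* (0.15) and *Krt19* to *Aqp5* (0.23), neither of which was among the nearest to another mesothelial gene.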

How the data were processed

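RNA-seq counts of 6 LMVEC libraries (3 *Ptprz1*+/+ and 3 *Ptprz1*-/-) were analysed. The authors deposited 1 table with the read count per gene and library, not normalized, together with gene lengths, FPKM values, group means and their own fold changes and p-values, and 3 lists of the genes they called. Only the counts and lengths were used here. The submitters' processing notes name STAR, TopHat, HTSeq, DESeq2 and edgeR and the builds GRCm38 and mm10. Which tool made the counts, the annotation release and the strand setting are not given in the sources used here.

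The whole table was fitted in R 4.3.3 by the quasi-likelihood test of edgeR 4.0.16 (glmQLFit, then glmQLFTest) after filterByExpr and TMM scaling. Genotype was the only term, with Benjamini-Hochberg adjustment over 13609 genes and a threshold of 0.05. The SE was derived from the F statistic, as |log2 fold change| over its square root. CPM uses TMM-scaled library sizes, and RPKM divides it by the deposited length. Alternatives used DESeq2 1.42.0, limma 3.58.1 (voom), upper-quartile scaling, other filters, a replicate term and libraries left out. The functions were checked on simulated counts of independent libraries with the same dispersion for every gene. This checked the code, not how well the tests find differences in genes as variable as these. CPM of single genes was compared by an exact permutation test (two-sided). Transcripts of GENCODE M21 were aligned with minimap2 2.31, and matches of at least 100 bases were kept. Of the table's identifiers, 9 of the 10 matched GENCODE M21.

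Genes and companion lists were chosen with earlier results of these data known. Named were all 10 mesothelial genes, genes from among the 4 most abundant of each companion list, and nearest genes by profile (from 10 for the mean and 3 per gene). *Muc1* and *Foxj1* were among the 4 of their lists and are not discussed. *Gpm6a*, *Rspo1*, *Nkain4*, *Calb2*, *Itln1*, *Upk2*, *Upk1a*, *Ptprc*, *Krt5*, *Krt14* and *Krt17* were named outside this rule, after their values were seen. Some genes of the companion lists are not reported here. Depth lay between 14496881 and 17709663 counts per library, and *Krt8*, *Krt18* and *Muc16* had at most 36 reads in any of them.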

Additional observations from a re-analysis of the deposited data

How the results depend on the processing

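The 8 mesothelial genes tested and 4 companions (*Gpm6a*, *Krt7*, *Ezr* and *Rspo1*) kept direction and side of the threshold in 149 of 153 combinations of gene and alternative, and none passed. The 4 exceptions changed direction: without *Ptprz1*-/- replicate 1, *Msln* was at -0.44, *Krt18* at -0.61 and *Krt19* at -0.16 log2, and without *Ptprz1*+/+ replicate 2, *Krt18* was at -0.03. With 1 library left out, log2 fold changes ran from -0.44 to 4.99 for *Msln*, from -0.61 to 1.28 for *Krt18* and from -0.16 to 1.73 for *Krt19*, each highest without *Ptprz1*+/+ replicate 1. The median of the mesothelial genes was lowest, at 0.36, without *Ptprz1*-/- replicate 1 and highest, at 2.77, without *Ptprz1*+/+ replicate 1, and without the replicates numbered 3 in both genotypes it was 2.08. Over all genes, DESeq2 called 31, where edgeR called 0 and every other alternative 0, and the cause was not tested. The lowest adjusted p of a mesothelial gene was 0.297 (*Lrrn4*, DESeq2) and the highest 1.00.

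Replicate numbers are shared by the genotypes. Same-numbered libraries deviated together at correlations of 0.46, -0.06 and 0.53, against -0.58 to 0.08 for differently numbered ones. The replicates numbered 1 and 3 thus shared deviations and those numbered 2 did not, and the main fit did not treat them as pairs. The fit with a replicate block called 0 of 13609 genes (690 at an unadjusted p under 0.05) and 0 of the 8 mesothelial genes (5 at that level), with a median of 1.77. Low counts, at most 36 per library for *Krt8*, *Krt18* and *Muc16*, limit what can be seen of these genes.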
